A study of Homo sapiens with 3 samples.

Results

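The genes described here are 6 kallikrein-related peptidases, KLK5, KLK6, KLK7, KLK8, KLK10 and KLK11. They were taken by symbol from the 33694 features of 3 single-cell RNA libraries of BxPC-3, an established cell line from a human pancreatic ductal adenocarcinoma. All 6 symbols were found. Cells were barcodes with at least 6500 unique molecular identifiers (UMIs), which gave 5640 cells in all. The parental group (2409 cells) was the reference. For the other groups, equal numbers of cells with stable EGFP and with stable mCherry were combined and held in suspension, a culture in which epithelial cells can enter each other by entosis. After flow sorting, cells with both signals made up the double-positive group (1940 cells) and cells with a single signal the single-positive group (1291 cells). Each group was 1 library of 1 line, so no difference between groups has a replicate check and none was tested. Whether the single-positive cells were of both colours, and whether expansion preceded sorting, is not stated in the labels.

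Kallikrein-related peptidases are secreted serine proteases made as inactive precursors, and a short propeptide must be cut off before they act. In stratified epithelia they form an activation cascade in which KLK5 can activate other members, KLK7 cleaves adhesion proteins of the outermost cells, and inhibitors such as the SPINK5 product hold them in check. KLK6, KLK7, KLK10 and others have been described in pancreatic adenocarcinoma, and KLK10 has been studied as a candidate growth suppressor in breast cells.

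All 6 genes lie on the minus strand of chromosome 19 (GENCODE 29, GRCh38), from KLK5 at chr19:50943303-50953093 to KLK11 at chr19:51022216-51028039, a span of 84.7 kb. KLK10 (chr19:51012739-51020175) is the direct neighbour of KLK11, with 2040 bases between them. KLK11 overlaps no other annotated gene, while KLK10 overlaps AC011473.2 on the opposite strand, and no source used here says whether the counting used strand. KLK5, KLK6 (chr19:50958631-50969673), KLK7 (chr19:50976482-50984099) and KLK8 (chr19:50996007-51002711) also overlap other counted features. Those of KLK5, KLK6 and KLK7 are on the opposite strand, while KLK8 also overlaps AC011473.4 on its own strand. The effect of that overlap on KLK8 counts was not tested.

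KLK10 and KLK11 held nearly all member UMIs and were found in the same cells, so a promoter window of each is shown, running from 250 bases before to 50 bases after a RefSeq start site (GRCh38.p14, minus strand, 5′ to 3′). Capitals mark matches to the CACCC box (CACCC) and the GC box (GGGCGG) on either strand. The windows are chr19:51019660-51019959 for KLK10 and chr19:51026567-51026866 for KLK11.
KLK10: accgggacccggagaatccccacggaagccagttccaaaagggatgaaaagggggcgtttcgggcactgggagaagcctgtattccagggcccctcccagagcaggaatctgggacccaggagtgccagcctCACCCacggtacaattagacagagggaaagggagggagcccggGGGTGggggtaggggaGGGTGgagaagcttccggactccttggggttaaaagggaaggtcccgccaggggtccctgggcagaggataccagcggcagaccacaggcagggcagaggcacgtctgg
KLK11: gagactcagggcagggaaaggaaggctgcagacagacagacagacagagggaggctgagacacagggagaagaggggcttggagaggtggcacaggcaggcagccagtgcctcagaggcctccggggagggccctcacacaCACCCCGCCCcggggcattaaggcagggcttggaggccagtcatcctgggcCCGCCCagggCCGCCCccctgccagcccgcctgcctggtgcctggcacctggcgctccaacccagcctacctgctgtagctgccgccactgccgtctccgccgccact

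The KLK10 window held 3 CACCC boxes and no GC box, and the KLK11 window held 3 GC boxes and 1 CACCC box, which shares its last base with a GC box. The other KLK11 window (chr19:51027597-51027896) held 3 CACCC boxes and no GC box. The other KLK10 window (chr19:51019812-51020111) held 2 CACCC boxes and no GC box. The contrast in GC boxes thus depends on the window shown. CACCC boxes were in 59.9% and GC boxes in 45.0% of 35116 promoter windows of that length, so neither match sets these windows apart. The RefSeq table had 9 windows for 5 of the 6 members. None of the 9 held an AP-1 site (TGANTCA, in 7.71% of all windows), a cyclic AMP response element (TGACGTCA, 1.85%), a TATA box (TATAAA, 11.5%) or the steroid receptor element (0.00285%), each searched on both strands. E-boxes (CANNTG) were in 68.7% of all windows and in the KLK11 window above, but not in the KLK10 window. A match or its absence describes these letters only.

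The libraries held 65107147 (parental), 51637677 (single-positive) and 62517276 (double-positive) UMIs, of which 97.7% or more were in cells, and a median cell had 23290, 38137 and 29963.5 UMIs. Levels are UMIs summed over the cells of a library per 1000000 UMIs (CPM), not scaled by gene length. Intervals are exact 95% intervals and cover counting error only. For shares of cells, every cell was thinned to 6500 UMIs, since deeper cells show more genes. Epithelial markers summed to 9782 to 10106 CPM, fibroblast markers to 2.70 to 3.28 CPM, endothelial markers to 0.278 to 0.455 CPM and erythroid markers to 0.238 to 0.329 CPM. Acinar and endocrine markers of the pancreas were at most 0.0627 CPM. Immune markers summed to 32.9 to 44.6 CPM, of which CD68 gave 29.1 to 39.1 CPM, and PTPRC, the defining leukocyte gene, had 0 UMIs in every library. In the single-positive library 251 cells had fewer than 15000 UMIs and a median mitochondrial share of 3.34%, against 1.02% in its deeper cells. These 251 cells are also described apart from the rest.

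KLK10 gave the most UMIs of the 6. Parental cells held 9087, single-positive cells 9322 and double-positive cells 8068. In the same order these are 142.5 CPM (139.6 to 145.4), 184.7 CPM (181.0 to 188.5) and 131.9 CPM (129.1 to 134.8). The single-positive library was highest. The intervals of the 3 libraries did not overlap, but they leave out the spread between cells and between replicate libraries. At least 1 KLK10 UMI was seen in 50.9%, 63.2% and 53.7% of cells before thinning and in 32.1% (30.3 to 34.0%), 40.8% (38.1 to 43.6%) and 31.2% (29.2 to 33.4%) at equal depth.

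KLK10 was concentrated in a minority of cells. The 10% of cells with most KLK10 UMIs held 62.3% of them in parental cells and 63.7% in both sorted groups. Single cells reached 151, 169 and 116 UMIs. Conversely, among cells above 30000 UMIs, 28.7%, 35.0% and 41.5% had no KLK10 UMI, where a level equal in every cell would leave 0.46%, 0.061% and 0.73% without it. High and low cells were therefore present in each library at depths where the gene could be seen. Cells with 20 or more KLK10 UMIs made up 4.36%, 11.1% and 5.46% of cells and held 40.2%, 66.8% and 47.2% of the UMIs, in libraries whose depths differ.

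KLK11, a trypsin-like member, gave 3283, 3331 and 2328 UMIs, which is 51.5 CPM (49.7 to 53.3), 66.0 CPM (63.8 to 68.3) and 38.1 CPM (36.5 to 39.6) in the order parental, single-positive, double-positive. The order of the libraries was that of KLK10, again with intervals that did not overlap but leave out the spread between cells. Its share of cells at equal depth was 19.4% (17.8 to 21.0%), 24.9% (22.5 to 27.3%) and 16.5% (14.9 to 18.3%). The richest 10% of cells held 59.9%, 61.9% and 63.7% of KLK11 UMIs, close to the shares for KLK10. KLK10 and KLK11 together gave 99.7%, 99.4% and 99.1% of all UMIs of the 6 genes.

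**Figure D1:**
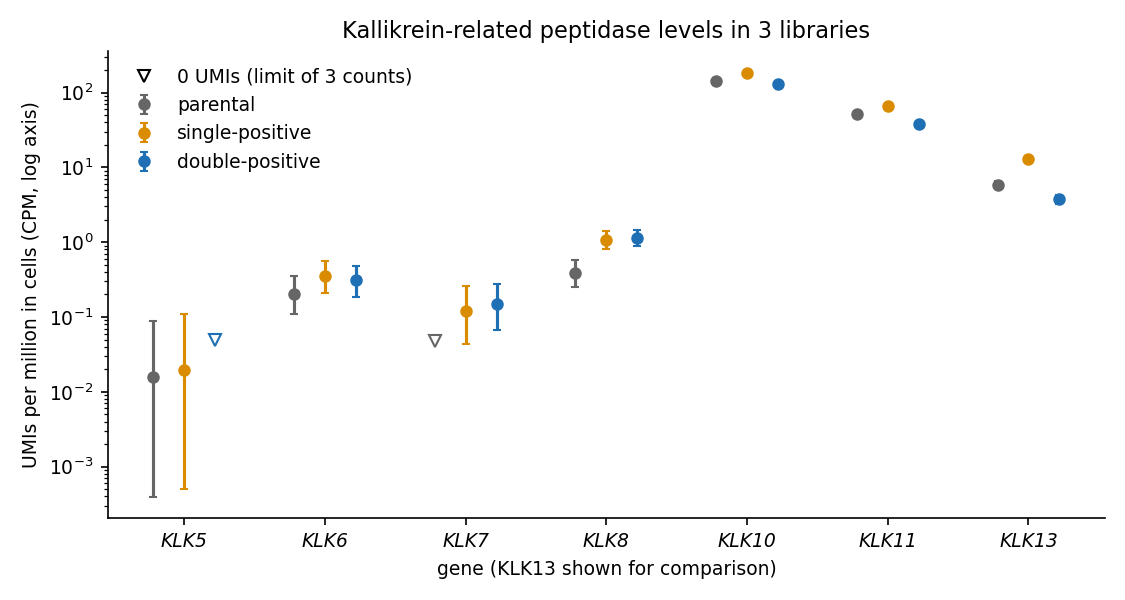
Level of each member and of KLK13 in CPM (log axis), 1 point per library with its exact 95% Poisson interval. Open triangles mark genes with 0 UMIs, drawn at 3 counts. KLK10 and KLK11 lie between 38.1 and 184.7 CPM, and the other 4 members at or below 1.14 CPM.

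Free RNA was measured in barcodes with 100 UMIs or fewer. They held 113, 106 and 227 KLK10 UMIs and 42, 45 and 35 KLK11 UMIs. Scaled to the mean depth of the 10000 largest barcodes not called as cells, this is 0.0108, 0.00625 and 0.0173 KLK10 UMIs a droplet, beside 7.41, 11.4 and 7.74 in a cell with any KLK10. The double-positive library had the most KLK10 among free RNA, at 260.0 CPM against 151.7 CPM in parental and 124.0 CPM in single-positive, the reverse of the order in cells. With 10% of cell UMIs subtracted in proportion to free RNA, KLK10 differed more between double-positive and single-positive cells, not less (log2 ratio -0.70 in place of -0.49).

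The 251 shallow single-positive cells held KLK10 at 155.8 CPM, below their library's mean, yet 60.2% (53.8 to 66.3%) of them had a UMI at equal depth. A level equal in each of these cells would give 63.4%. In the other classes of cells the KLK10 share lay far below such a level. It was 36.2% (33.2 to 39.2%) beside 69.2% in deeper single-positive cells, 24.9% beside 56.0% in shallow parental cells and 31.0% beside 65.5% in shallow double-positive cells. KLK11 was found in 33.9% of the shallow single-positive cells, beside 35.2% for an equal level, and in 22.7% beside 33.9% of the deeper ones. Its contrast between classes was less clear, since the 142 shallow double-positive cells had 16.9% (11.1 to 24.1%) beside 22.9%, an interval that also holds the equal level. LY6D, a surface protein of stratified epithelium, was at 48.6% beside 49.2% in those 251 cells and at 10.7% beside 29.6% in the deeper cells.

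Without cells under 15000 UMIs, KLK10 was found at equal depth in 33.5%, 36.2% and 31.3% of cells (parental, single-positive, double-positive), with 2.70, 3.26 and 2.74 thinned UMIs in each positive cell. The single-positive excess in the share of cells was thus smaller than over all cells, while the summed levels hardly moved (log2 ratio of single-positive against parental 0.37 with and without them). For KLK11 the shares were 20.2%, 22.7% and 16.5%, with 1.59, 1.83 and 1.56 thinned UMIs in each positive cell. The part of free RNA and of the mitochondrial share in these values was not tested.

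**Figure D2:**
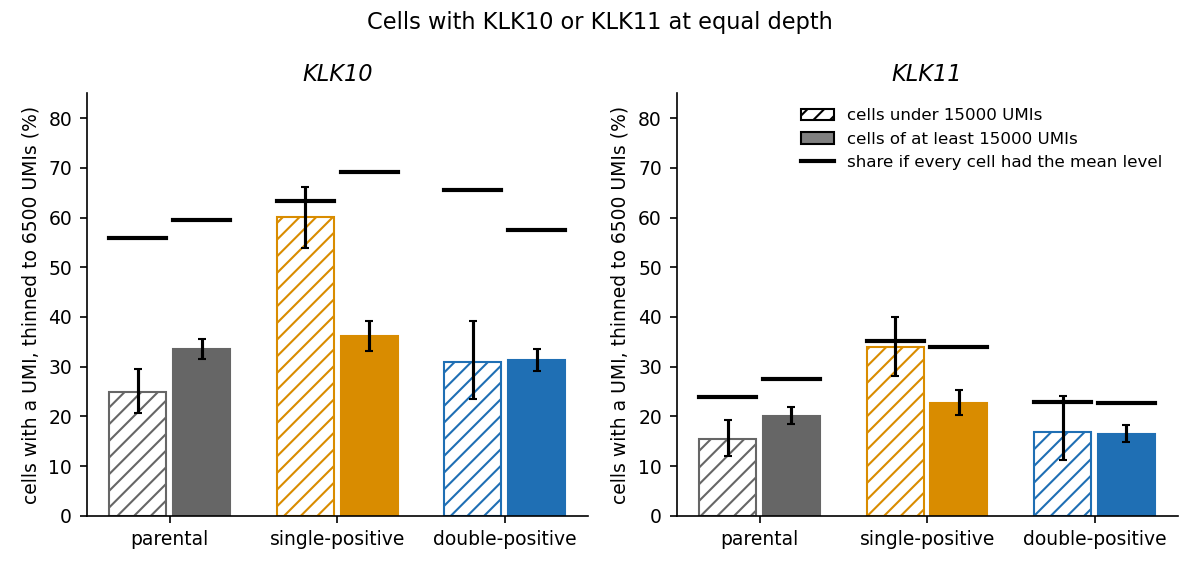
Share of cells with a KLK10 (left) or KLK11 (right) UMI after thinning to 6500 UMIs, in percent, for cells under 15000 UMIs (hatched) and deeper cells (filled) of each library. Error bars are exact 95% binomial intervals and black lines the share expected if every cell of the class had its mean level. The interval of the shallow single-positive cells holds that line for both genes (60.2% beside 63.4% for KLK10), and that of the shallow double-positive cells for KLK11.

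The other 4 members were sparse, and none reached 5 CPM, the floor used for gene counts. KLK8, a trypsin-like member also called neuropsin, gave 25 UMIs in 24 parental cells, 54 in 33 single-positive cells and 70 in 29 double-positive cells. A single double-positive cell, with 42648 UMIs in all, held 40 of those 70, together with 7 KLK7, 14 KLK10 and 4 KLK11 UMIs. The other double-positive cells had 30 KLK8 UMIs between them, and 26 of the 29 positive cells had just 1. In single-positive cells the richest cell held 9 KLK8 UMIs and 169 KLK10 UMIs. As levels, KLK8 was at 0.392 CPM (0.254 to 0.579), 1.07 CPM (0.804 to 1.40) and 1.14 CPM (0.892 to 1.45).

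KLK7, the chymotrypsin-like member that cleaves desmosomal proteins in skin, had 0 UMIs in the parental library, 6 in the single-positive and 9 in the double-positive one. The parental 0 allows up to 0.0470 CPM at 3 counts. Of the 9 double-positive UMIs, 7 came from the cell rich in KLK8 just described. KLK6, a trypsin-like member also known as neurosin, gave 13, 18 and 19 UMIs in 12, 16 and 18 cells, with at most 2 UMIs in a cell. KLK5, the activating member, gave 1, 1 and 0 UMIs, and the 0 of 1940 double-positive cells allow up to 0.155% of cells with a UMI, which is no limit on cells that express the gene. At this depth the KLK5 values of the 3 libraries cannot be told apart.

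Most cells with a sparse member held KLK10 as well. At least 1 of KLK5 to KLK8 was seen in 37 parental, 51 single-positive and 48 double-positive cells, of which 32, 46 and 45 had KLK10. Any of the 6 members was present in 57.0%, 69.8% and 59.3% of cells before thinning, and a cell thinned to equal depth showed 0.517, 0.661 and 0.485 members on average.

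Co-expression was measured as an odds ratio over 10 strata of UMIs per cell, so that deep cells were compared with deep cells. KLK11 was seen in 64.5% of parental cells with KLK10 and in 12.2% of those without, an odds ratio of 10.9. In single-positive cells the shares were 65.6% and 17.1% (odds ratio 8.23), and in double-positive cells 54.1% and 11.9% (8.25). The pair thus stood together in each library. Of 15 member pairs, 4 had an odds ratio of at least 1.5 in all 3 libraries or no cell lacking the partner: KLK10 with KLK11, KLK8 with KLK10, KLK8 with KLK11, and KLK6 with KLK10. KLK10 was in 22 of 24, 30 of 33 and 29 of 29 cells with KLK8, and in 9 of 12, 14 of 16 and 15 of 18 cells with KLK6. KLK8 with KLK11 had odds ratios of 8.74, 7.85 and 11.7. Only KLK10 with KLK11 and KLK8 with KLK10 passed in each of the 6 other ways of counting pairs. KLK6 with KLK10 did not in thinned cells, nor KLK8 with KLK11 where a cell needed at least 2 UMIs of each. For KLK8 with KLK10 this rests on few cells. Thinned cells with KLK8 numbered 3, 4 and 6, of which 2, 3 and 3 had KLK10. KLK6 with KLK11 had 1.14, 5.32 and 4.30, and the remaining pairs were together in at most 4 cells of a library. Every such pair comes from cells of 1 library and shares its depth.

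KLK10 and KLK11 counts also followed each other among thinned cells, with Pearson r of 0.51, 0.49 and 0.47 on log counts. In the 251 shallow single-positive cells r was 0.17 and the odds ratio 2.26, against 0.54 and 11.6 in the deeper single-positive cells. Parental values were 0.46 in shallow and 0.51 in deeper cells, and double-positive values 0.51 and 0.47, so the link was weak in that class alone among the 6.

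By KLK10 class, KLK11 stood at 7.76, 7.58 and 5.69 CPM in cells without KLK10 and at 36.0, 28.4 and 23.1 CPM with 1 to 4 KLK10 UMIs. It reached 107.4, 90.1 and 90.1 CPM with 5 to 19 UMIs and 221.5, 221.1 and 177.2 CPM with 20 or more. The order was the same in all 3 libraries, and in the top class at least 94.3% of cells had KLK11. Classes of raw UMIs also differ in depth, with medians of 20855, 36391 and 28622.5 UMIs without KLK10 and 35452, 55615 and 37603.5 in the top class.

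**Figure D3:**
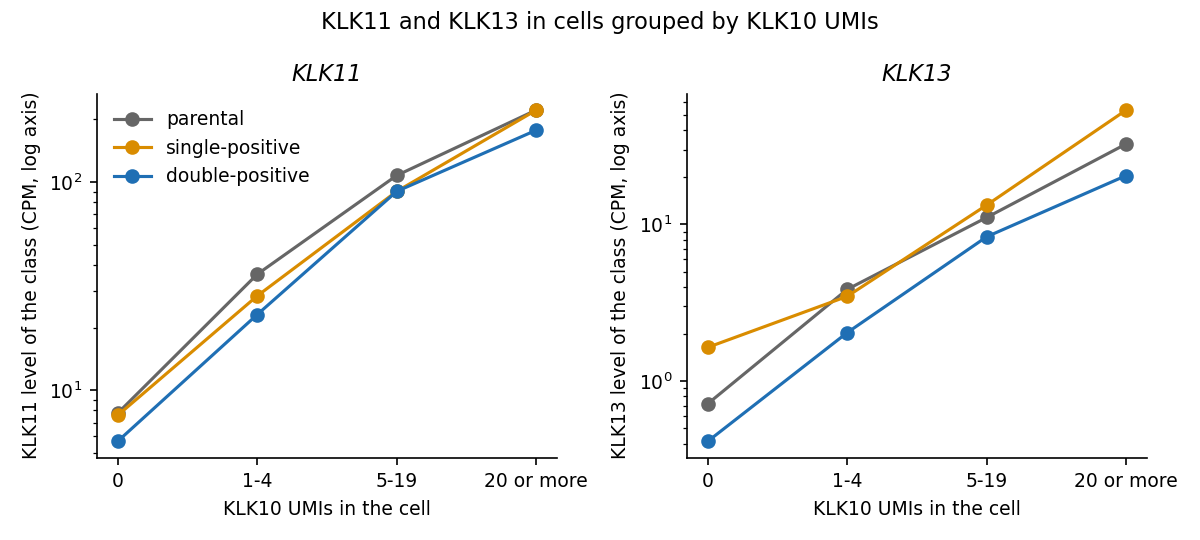
KLK11 (left) and KLK13 (right) level in CPM (log axis) in cells grouped by their number of KLK10 UMIs, 1 line per library. Both genes are higher in each class than in the class below, and KLK11 goes from 5.69 to 7.76 CPM in cells without KLK10 to 177.2 to 221.5 CPM in the top class.

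The balance of the pair differed in double-positive cells. KLK11 gave 0.361 UMIs for each KLK10 UMI (0.347 to 0.376) in the parental library, 0.357 (0.343 to 0.372) in the single-positive and 0.289 (0.275 to 0.302) in the double-positive one. The double-positive interval lay below the others, but these intervals too leave out the spread between cells. Among the 791, 535 and 564 cells with both genes the ratio was 0.387, 0.374 and 0.329.

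KLK13, a trypsin-like member of the same cluster that is not among the 6, gave the next most UMIs. Of 9 other kallikrein genes found, it alone passed 5 CPM on average. It gave 376, 662 and 228 UMIs, or 5.90 CPM (5.31 to 6.52), 13.1 CPM (12.1 to 14.2) and 3.73 CPM (3.26 to 4.25). Single-positive cells were again highest and double-positive cells lowest, with wider gaps than for KLK10 and KLK11. KLK10 was in 92.2%, 91.5% and 93.4% of KLK13-positive cells, with odds ratios of 11.6, 7.38 and 13.1. In cells with 20 or more KLK10 UMIs, KLK13 stood at 32.6, 53.5 and 20.5 CPM, and the order of the libraries held within that class. KLK1, tissue kallikrein, was at 0.909, 0.892 and 0.523 CPM, and KLK14 and KLK2 stayed at or below 0.219 CPM.

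The 4 genes most like KLK10, by median r over the 3 libraries among 5494 genes of at least 20 CPM, were KLK11, IGFBP6, KRT13 and MDK. IGFBP6, a secreted binder of insulin-like growth factors, had r of 0.31, 0.38 and 0.34. KRT13, a keratin of internal stratified epithelia, had 0.31, 0.32 and 0.26, and the secreted growth factor MDK 0.30, 0.38 and 0.24. For KLK11 they were KLK10, LY6D (0.31, 0.35 and 0.27), MDK (0.30, 0.33 and 0.24) and the protease inhibitor SERPINB3 (0.29, 0.29 and 0.17). The 95th percentile of median r over all genes compared was 0.05 for each member. These are descriptions over cells of 1 library at equal depth. Chosen after their values were seen, the metallothionein MT2A had r of -0.28, -0.26 and -0.23 with KLK10 and -0.31, -0.29 and -0.22 with KLK11. LGALS1, a galectin, had -0.23, -0.22 and -0.19 with KLK10.

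By KLK10 class, IGFBP6 went from 914.5 CPM without KLK10 to 2588 CPM in the top class of parental cells, from 654.1 to 2015 CPM in single-positive and from 870.7 to 2541 CPM in double-positive cells. MT2A went the other way, from 9634 to 4779 CPM, from 11961 to 5097 CPM and from 8657 to 4370 CPM.

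Genes of stratified epithelium were compared between cells with and without KLK10. This list and those below were chosen with earlier results of these data known. Their counts beside the share of all genes are therefore descriptive and not independent support. Of the 17 genes of that list past 5 CPM, 6 were at least 1.5-fold higher in cells with a thinned KLK10 UMI in all 3 libraries, against 0.653% of 9500 genes, and none was 1.5-fold lower, against 0.211%. They were LY6D, KRT4, KRT13, LCN2, SPRR1A and SPRR3. LY6D was at 142.3 CPM with and 28.7 CPM without KLK10 in parental, 126.4 and 20.5 CPM in single-positive and 58.1 and 11.8 CPM in double-positive cells, log2 ratios of 2.31, 2.62 and 2.31. KRT4, the keratin that pairs with KRT13, was at 107.7 and 28.2, 86.7 and 22.4, and 39.4 and 11.3 CPM. Not every gene of the list followed: DMKN had log2 ratios of -0.12, -0.20 and -0.03, and the calprotectin subunit S100A8 -1.89, 0.24 and 2.14, so its sign differed between libraries. The list median was 0.72, 0.42 and 0.62, beside -0.03, 0.01 and -0.01 over all genes.

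For KLK11-positive cells, 7 of the 17 genes were at least 1.5-fold higher in all 3 libraries, against 0.663% of all genes, and 0 lower, against 0.358%. These were the 6 just named and KRT23. Where at least 2 thinned KLK11 UMIs were needed the count was 6, without LCN2. Among cells of at least 15000 UMIs the counts were again 6 and 7, with KRT16 in place of SPRR1A for KLK10. There LY6D had log2 ratios of 2.18, 3.35 and 2.18 with KLK10.

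**Figure D4:**
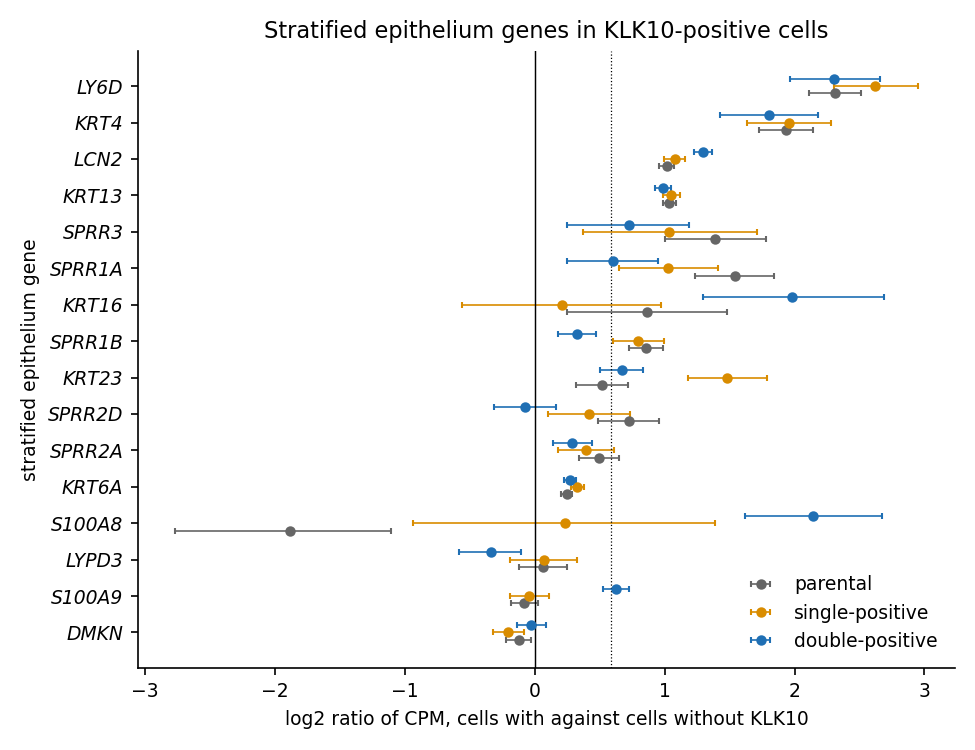
Log2 ratio of CPM between cells with and without a thinned KLK10 UMI for 16 stratified epithelium genes past 5 CPM that are on no other list, 1 point per library with its exact 95% interval from the counts. The dotted line marks 1.5-fold. LY6D lies farthest to the right in all 3 libraries, at 2.31 to 2.62, while S100A8 lies on both sides of 0.

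Protease inhibitors came next, with 4 of 12 genes at least 1.5-fold higher in KLK10-positive cells of all 3 libraries, against 0.653% of all genes. Where a positive cell needed at least 2 thinned KLK10 UMIs the count was 2, SERPINB3 and WFDC2. SERPINB3 was at 252.0 and 76.2 CPM in parental, 163.5 and 61.6 CPM in single-positive and 116.8 and 51.6 CPM in double-positive cells with and without KLK10. WFDC2 and SLPI, secreted proteins with whey acidic protein domains, had log2 ratios of 1.05, 1.15 and 1.13, and of 0.82, 0.83 and 0.77. PI3, the elastase inhibitor elafin, had 0.60, 1.45 and 2.14. The inhibitor SPINT2 had ratios near 0 (0.05, 0.02 and 0.04), and SPINK5 had 0.39, 0.07 and -0.35. SERPINE2, an inhibitor of thrombin and urokinase, was the 1 gene of the list that was lower with KLK10 in all 3 libraries (-0.46, -0.53 and -0.50), by less than 1.5-fold. With KLK11 the count was 3 of 12, without PI3, against 0.663% of all genes. Where at least 2 thinned KLK11 UMIs were needed it was again 3, with SERPINB1 in place of SLPI.

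Proteases that could cut kallikrein precursors gave 1 of 9 genes, the membrane protease TMPRSS4, at 83.3 and 43.3, 79.4 and 47.3, and 83.8 and 48.6 CPM with and without KLK10. PLAU, urokinase, was at log2 ratios of -0.32, -0.03 and -0.35. Of 15 substrates and receptors, MUC4 alone was past 1.5-fold in all 3 libraries (1.42, 0.98 and 1.20), and the protease-activated receptor F2RL1 had -0.19, 0.20 and 0.22. Among 18 transcription regulators the epithelial factor ELF3 (1.18, 1.15 and 0.80) and the retinoic acid receptor RARG (0.82, 0.88 and 0.75) were past it, while FOSL1, FOS, JUN and JUNB lay between -0.15 and 0.57. No locus neighbour (0 of 7) and no cell cycle gene (0 of 18) was. The share of all genes beside each of these counts was 0.653%. With KLK11 the counts were 2 of 9 proteases, 1 of 15, 2 of 18, 0 of 7 and 0 of 18, beside 0.663% of all genes. The substrate was MUC4, but DSG3 where at least 2 thinned KLK11 UMIs were needed. The regulators there were ELF3 and OVOL1 (1.21, 0.71 and 0.75), while RARG missed 1.5-fold in double-positive cells (0.56). The second protease was PRSS1, trypsinogen, with 1.39, 1.67 and 2.80 for KLK11 but -0.49, 0.61 and 0.48 for KLK10, and it was not past 1.5-fold where at least 2 thinned KLK11 UMIs were needed.

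Double-positive against single-positive cells asks what distinguishes cells that carry both signals after the same mixing and sorting. KLK11 was lower in double-positive cells, at a log2 ratio of -0.79 (-0.87 to -0.72), and KLK10 less so (-0.49, -0.53 to -0.44). KLK11 was the 1 member at least 1.5-fold apart, where 0.758% of 9501 genes past 5 CPM were, and 21 genes lay lower than KLK11. Without a floor, 15.1% of 17556 genes were past 1.5-fold. Over 12 other processing choices KLK11 ranged from -0.99 to -0.70 and KLK10 from -0.70 to -0.32, so the direction of both held. KLK13 was lower still (-1.82, -2.04 to -1.60), and 1 gene of 9501 lay below it. KLK8 had 0.10 (-0.44 to 0.64), KLK6 -0.20 (-1.21 to 0.82) and KLK7 0.31 (-1.35 to 2.08), each with an interval across 0. Without the double-positive cell that held 40 KLK8 UMIs, KLK8 went to -1.12 and KLK7 to -1.86, so their direction rests on that 1 cell. Without the richest such cell of each library they were at -0.86 and -1.86.

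Single-positive against parental cells compares the sorted cells of a single signal with the reference. KLK10 (0.37, 0.33 to 0.42) and KLK11 (0.36, 0.29 to 0.43) were both higher in single-positive cells, by less than 1.5-fold in the main processing. Their ratios were 0.17 and 0.23 without cells of 50000 UMIs or more, which were 344 single-positive but 156 parental cells. In the shared UMI range (22974 to 32998), with 142 single-positive and 628 parental cells, they were 0.43 and 0.63, so KLK11 was past 1.5-fold there. Over 14 other processing choices KLK10 ranged from 0.17 to 0.44 and KLK11 from 0.23 to 0.63. In the main processing the 3 members past 1.5-fold were the sparse KLK8 (1.45, 0.74 to 2.20), KLK6 (0.81, -0.30 to 1.96) and KLK7. KLK7 was at least 2.53-fold higher against a parental floor of 3 counts, but its 6 UMIs, 3 of them in 1 cell, have a counting error of their own, and the exact interval starts at 0.57 on the log2 scale, under 1.5-fold. By the rule with a floor 0.589% of genes were called, but these members are below it, and without a floor the share was 14.8% of 17598 genes. KLK13 was higher by 1.15 (0.97 to 1.34), with 3 genes above it.

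In double-positive against parental cells, which share those parental cells with the previous comparison, KLK10 was at -0.11 (-0.15 to -0.07) and KLK11 at -0.44 (-0.51 to -0.36), both lower in double-positive cells. KLK8 was higher by 1.55 (0.87 to 2.27), and by 0.32 when the double-positive cell with 40 KLK8 UMIs was left out. KLK6 had 0.61 (-0.49 to 1.75), and KLK7 was at least 3.13-fold higher against the same floor (interval from 1.04 on the log2 scale), resting on 9 UMIs of which 7 were in that same cell. These 3 were past 1.5-fold, where the share of all genes was 14.6% of 17718 without a floor and 0.674% with it. KLK13 was at -0.66 (-0.90 to -0.42). The median log2 ratio over all genes was -0.03, 0.06 and 0.03 in the 3 comparisons, smaller in size than the main values for KLK10 and KLK11. In double-positive against parental cells, however, 15.1% of 9501 genes lay at or below KLK10, against 0.863% at or below KLK11. Over 14 other processing choices KLK10 there ranged from -0.27 to -0.03, so its difference from parental cells was small.

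**Figure D5:**
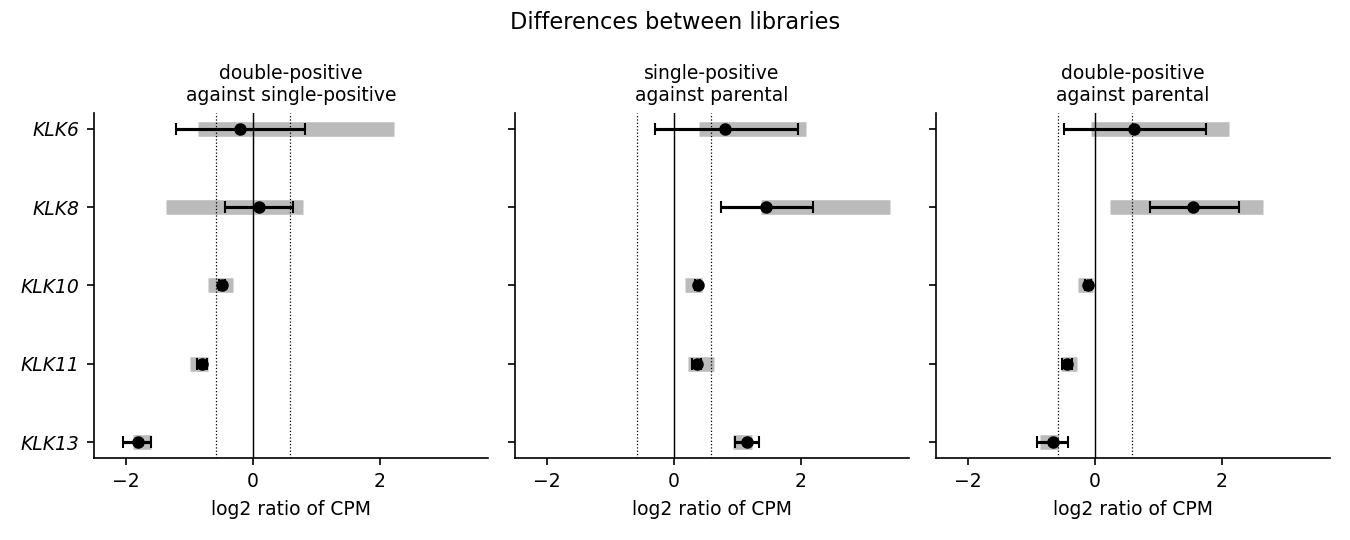
Log2 ratios of CPM for the 4 members with UMIs in every library and for KLK13 in the 3 comparisons. Points and bars give the ratio with its exact 95% interval from the counts, grey bands the range over 12 other processing choices, and dotted lines 1.5-fold. KLK10, KLK11 and KLK13 are lower in double-positive than in single-positive cells with every choice, while the KLK6 and KLK8 bands there cross 0.

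Cell cycle state and mitochondrial share were measured beside these differences. In cells at or below the library's median of cell cycle UMIs, KLK10 was at 151.8, 204.6 and 139.4 CPM, and above it at 134.5, 164.4 and 125.3 CPM, so single-positive cells were highest on both sides. Cells under 0.5% mitochondrial UMIs numbered 767, 281 and 120. Their KLK10 level was 149.7, 182.6 and 124.2 CPM, against 137.3, 185.7 and 132.6 CPM in the rest, and KLK11 kept the order of the libraries in both classes.

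Few genes of the other lists differed between double-positive and single-positive cells, where 0.758% of all genes did. In double-positive against single-positive cells 0 of 12 inhibitors, 0 of 9 proteases, 0 of 15 substrates and receptors, 0 of 7 locus neighbours, 0 of 18 regulators and 0 of 18 cell cycle genes were 1.5-fold apart, near that share. The stratified epithelium list, with 5 of 17, lay above it, but it was chosen with earlier results of these data known. Its excess is therefore not independent support. Of its genes, KRT23 (0.91) and S100A8 (1.16) were higher and KRT4 (-1.14), LY6D (-1.20) and KRT16 (-0.65) lower, with KRT16 of the other sign with 1 of these choices. The medians of these lists lay between -0.14 and 0.14. The 7 locus neighbours past 5 CPM, among them EMC10, ETFB, C19orf48 and JOSD2, had a median of -0.12, and C19orf48 -0.12. KRT6A, a stress keratin of the stratified epithelium list, had -0.14.

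Against parental cells, single-positive cells had 1 of 9 proteases and 1 of 17 stratified epithelium genes past 1.5-fold, beside 0.589% of all genes. Double-positive cells had 1 of 9 proteases, 1 of 12 inhibitors and 3 of 17 stratified epithelium genes past it, beside 0.674%. In single-positive cells PRSS1 was lower (-2.44), and so was S100A8 (-1.23). In double-positive cells PRSS1 (-2.53), SERPINB3 (-0.86), KRT4 (-1.35) and LY6D (-1.37) were lower and KRT23 (0.77) higher. LY6D and KRT4, the stratified epithelium genes with the largest median ratios over the libraries in KLK10-positive cells, stood at 72.5, 64.8 and 28.2 CPM and at 58.2, 50.2 and 22.8 CPM. Unlike KLK10, KLK11 and KLK13, they were not higher in single-positive than in parental cells.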

How the data were processed

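BxPC-3 cells were profiled with a droplet kit that reads 5′ transcript ends. Per the file headers and the submitters' processing notes, the deposited UMI counts came from Cell Ranger 4.0.0 on GRCh38, with Seurat 4.0.6 also listed. The sources used here name no annotation release. Each matrix lists 737280 barcodes, unfiltered. Kept barcodes had at least 6500 UMIs, and 8 of them occur in 2 libraries. Doublets were not removed, because cell-in-cell pairs could be taken for them.

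UMIs were summed over cells and scaled to CPM. Log2 ratios have exact conditional binomial (Clopper-Pearson) intervals, levels Poisson intervals and shares Clopper-Pearson intervals, all at 95%. With 1 library a group there is no test and no p-value. Ratios of at least 1.5-fold were counted over genes averaging 5 CPM or more, and also without a floor where a library had more than 3 UMIs. Thinning drew 6500 UMIs per cell without replacement. The steps were tested on simulated counts.

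The members, 8 gene lists and marker lists were chosen with earlier results of these data known. Named were all members, the 4 genes with most UMIs of each list, genes at least 1.5-fold apart between libraries or with a member, and the 4 genes most like KLK10 and KLK11 by r. Outside this rule, SPINK5, SERPINE2, F2RL1, MT2A and LGALS1 were named after their values were seen. The split of cells at 15000 UMIs used a planned limit, but was described after seeing the data. Software was pandas 2.3.3, scipy 1.17.1, numpy 2.4.6 and matplotlib 3.10.9 in Python 3.11.15. A gene of the lists is not reported here.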

Additional observations from a re-analysis of the deposited data

Results flagged for a closer look

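Barcodes with 100 UMIs or fewer lie outside the cells described, and they held KLK10 and KLK11 above the limit that a count of 0 allows. KLK10 had 113 UMIs there in the parental, 106 in the single-positive and 227 in the double-positive library. KLK11 had 42, 45 and 35. Per UMI of these barcodes, KLK10 was at 151.7, 124.0 and 260.0 CPM, with the double-positive library highest, where it was lowest in cells. KLK11 was at 56.4, 52.6 and 40.1 CPM, with the double-positive library lowest, as in cells.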

How the results depend on the processing

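No paired analysis was possible because each group was 1 library. Over 12 other processing choices and 2 added after seeing the data (leaving out the double-positive cell richest in KLK8, or in each library the cell richest in KLK5 to KLK8), KLK10, KLK11 and KLK13 kept their direction in every comparison. The count of members 1.5-fold apart in double-positive against single-positive cells, 1 in the main processing, was 3 in thinned cells, 3 in the shared UMI range (22974 to 32998), 3 with 10% of free RNA subtracted and 3 without either set of rich cells. It was 2 without cells of 50000 UMIs or more and 2 without cells under 0.5% mitochondrial UMIs. In cells at or below the library's median of cell cycle UMIs it was 2, and at 2-fold it was 0. For single-positive against parental cells it was 3 in the main processing, but 1 in thinned cells and 1 without cells of 50000 UMIs or more. It was 2 in the shared UMI range, without cells under 0.5% mitochondrial UMIs and in cells at or below that cell cycle median. It was also 2 with CPM averaged over cells and at 2-fold. For double-positive against parental cells it was 3 in the main processing. It was 1 in cells at or below that cell cycle median and 1 without either set of rich cells. In thinned cells, in cells of at least 15000 UMIs and in the shared UMI range it was 2. It was also 2 with libraries scaled by the median of gene ratios, with 10% of free RNA subtracted and at 2-fold. KLK6 in double-positive against parental cells turned from 0.61 to -0.055 with free RNA subtracted. Its free RNA profile there rests on 1 UMI. Members were counted without a floor. The share over all genes was taken in the main processing only. The member counts under the other choices therefore have no such share beside them and describe these genes alone. Of the 2 members past 5 CPM, a choice added after seeing the data, 1 was 1.5-fold apart in double-positive against single-positive cells and 0 in each comparison with parental cells.

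The number of members detected per cell depends on depth. Unthinned it was 0.913, 1.15 and 0.909 (parental, single-positive, double-positive). In the shared UMI range it was 0.482, 0.549 and 0.437. It was 0.592 in single-positive cells of at least 15000 UMIs and 0.553 in parental cells at or below the median of cell cycle UMIs. Pair counts ranged from 3 to 5 around 4, and the pairs lost are named above. With at least 2 thinned UMIs, 2 in place of 4 inhibitors were higher with KLK10 and 1 in place of 2 proteases with KLK11. Depth limits KLK5, KLK6 and KLK7 most, with at most 19 UMIs a library.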
